A study of Mus musculus with 9 samples.

Results

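Slurp1 encodes a small secreted protein of the Ly6/uPAR family. It was measured by 1 probe set among the 22690 on the array, and 12393 genes in all had a probe set annotated with a single symbol. The gene was selected on its measured signal across these same 9 arrays, and WT replicate 1 was singled out because its Slurp1 level departed from the other 2 WT arrays, so the levels of Slurp1 are given as a description with no test. The genes set beside it were likewise selected on the likeness of their profiles.

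The arrays held lung total RNA of adult FVB/N mice, with 3 arrays in each of 3 groups. HO mice carried 2 alleles of a transgene in which the promoter of the surfactant protein C gene (Sftpc) drives the normal human CFTR cDNA in respiratory epithelial cells. HE mice carried 1 such allele and WT mice carried none. The mouse Cftr gene was intact in every group for which the labels give a genotype, which leaves out WT replicate 3. HO replicate 2 is titled homozygous, but its description writes the genotype with 1 allele. Nothing in the labels says that each array came from a separate animal, so the spread between arrays may be partly technical. The comparison asks how added human CFTR changes lung mRNA levels. Arrays give no count depth. The median intensity per array ran from 697.1 to 741.8, and no array stood apart in its correlation with the others, since the median correlation per array over the 13576 probe sets tested ran from 0.964 on HO replicate 2 and WT replicate 1 to 0.971 on HE replicate 1.

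Proteins of the Ly6/uPAR family share a compact disulphide-bonded fold that also occurs in snake toxins. Secreted members such as Slurp1 bind nicotinic acetylcholine receptors and alter signalling through them. Slurp1 is made mainly by stratified and other surface epithelia, including skin, oesophagus, cornea and airway, and loss of SLURP1 in humans causes the palmoplantar skin disease Mal de Meleda. In the mouse cornea, Slurp1 is known to restrain inflammatory NF-kB signalling and to be activated by the transcription factor Klf4.

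Slurp1 signal was high on 7 arrays and low on WT replicates 2 and 3. Its intensity was 1045.7, 800.6 and 811.8 on HO replicates 1, 2 and 3. It was 801.1, 464.9 and 668.0 on HE replicates 1, 2 and 3. It was 1116.1, 98.9 and 153.5 on WT replicates 1, 2 and 3. The highest and the lowest value of the series therefore both came from WT lungs, and the WT range enclosed every HO and HE array. The HO and HE ranges met at their edges, with HO replicate 2 and HE replicate 1 at nearly the same value. In bulk lung RNA, fewer cells that express a gene and less RNA per cell cannot be told apart.

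**Figure D1:**
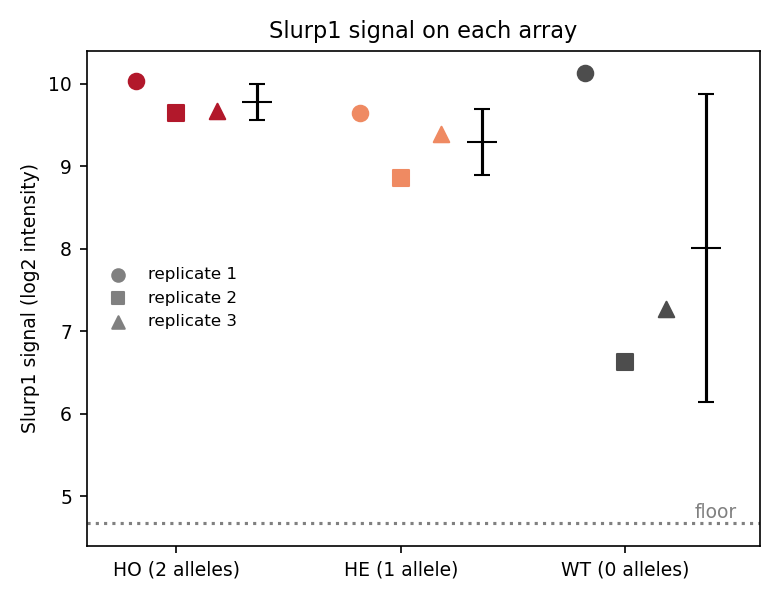
Slurp1 signal as log2 intensity (vertical axis) on each of the 9 arrays, by group, with the marker shape giving the replicate number and the black bar the group mean with its SD (n = 3). The 6 HO and HE arrays and WT replicate 1 lie between 8.86 and 10.12, WT replicates 2 and 3 lie at 6.63 and 7.26, and the dotted line is the floor given to the lowest intensities.

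On the log2 scale Slurp1 averaged 9.78 ± 0.22 in HO lungs, 9.30 ± 0.40 in HE lungs and 8.0 ± 1.86 in WT lungs (SD, n = 3 each). The HO mean exceeded the WT mean by 1.78 (3.42-fold) and the HE mean exceeded it by 1.29 (2.45-fold). Both comparisons share the WT arrays. The first difference is smaller than the SD of the WT arrays alone, and so is the second. HO exceeded HE by 0.48 (1.40-fold).

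The size of these differences depended on which WT arrays were included. Without WT replicate 1 the 2 remaining WT arrays averaged 6.94 ± 0.45 (SD, n = 2), HO exceeded WT by 2.84 (7.14-fold) and HE exceeded WT by 2.35 (5.10-fold). Without WT replicate 2, HO minus WT was 1.09 and HE minus WT was 0.60. Taken within replicate numbers, which coincide with 3 sets in the source names, HO minus WT was -0.09 for number 1, 3.02 for number 2 and 2.40 for number 3. HE minus WT was -0.48, 2.23 and 2.12 for the same numbers. HO minus HE was 0.38, 0.78 and 0.28, so the HO array was the higher in all 3 sets.

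Across all probe sets, limma with Benjamini-Hochberg adjustment called none at an adjusted p under 0.05 for HO minus WT (0% of 13576), HE minus WT (0%) or HO minus HE (0%). At an unadjusted p under 0.05 the shares were 4.49%, 3.11% and 2.56%. Slurp1 was not among the adjusted calls. When WT replicate 1 was left out, the single probe set past the adjusted threshold was Slurp1, both for HO minus WT and for HE minus WT. That array was chosen for removal by the level of this same gene, so those calls carry no weight as a test.

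Slurp1 was chosen partly for the departure of WT replicate 1, so its rank in spread among WT arrays follows from that choice. Of the probe sets that passed the filter, it had the widest spread over the WT arrays. Its SD over the 3 WT arrays, 1.86, ranked 1 of 13576 probe sets, whose median was 0.18. Over all 9 arrays its SD of 1.25 ranked 5, behind 4 genes named only for their rank, after their values were seen: Hipk2, a kinase (1.34), Bpifb1, an airway secretory protein, the nuclear RNA Malat1 and the neutrophil protein S100a9 (1.29 each). Within HO the SD of 0.22 was ordinary, since 37.0% of probe sets varied as much, and within HE 7.71% varied as much as 0.40. WT replicates 2 and 3 differed from each other by 0.63, a gap that 6.09% of probe sets reached.

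WT replicate 1 exceeded WT replicate 2 by 11.29-fold and WT replicate 3 by 7.27-fold. The lowest of the 7 high arrays, HE replicate 2, still exceeded WT replicate 3 by 3.03-fold, or 1.60 on the log2 scale. WT replicates 2 and 3 both lay below the other 7 arrays in 284 probe sets (2.09%) and both above them in 297 (2.19%). Among the 13576 probe sets that passed the filter, the gap below the other arrays was over 0.5 on the log2 scale in 3. These were Slurp1 (1.60), Aif1l, an actin-binding protein (1.06), and Tnfrsf12a, the receptor for the cytokine TWEAK (0.63). Aif1l and Tnfrsf12a were picked after their values were seen. Among the 9050 dim probe sets removed by the filter, 19 had such a gap (0.21%). One of these, picked after its values were seen, was Zfp787, a zinc finger protein, at 8.24 to 8.60 on the HO, HE and WT replicate 1 arrays and at 5.82 and 5.88 on WT replicates 2 and 3.

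Aif1l had log2 signals of 9.13, 10.94 and 9.55 on HO replicates 1, 2 and 3, of 9.73, 9.71 and 9.54 on the HE arrays, and of 10.19, 7.59 and 8.07 on the WT arrays. Its r with Slurp1 was 0.838. Tnfrsf12a had 10.24, 8.59 and 9.62 in HO, 10.08, 8.96 and 10.38 in HE, and 9.50, 7.90 and 7.96 in WT, with an r of 0.804. For both genes WT replicate 1 fell among the transgenic arrays, whereas for Slurp1 it lay above all 6 of them. Their WT replicates 2 and 3 lay below the filter's 8.90, as did those of Slurp1, so these genes passed it through their high arrays. Within the transgenic arrays their order was unlike that of Slurp1, with Aif1l highest on HO replicate 2 and Tnfrsf12a highest on HE replicate 3.

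WT replicate 1 was also the array on which several interferon-induced genes, named here after their values were seen, were high. WT replicate 1 exceeded the higher of WT replicates 2 and 3 by over 1 on the log2 scale in 32 probe sets (0.24%). Among these Slurp1 (2.86) ranked 2, after the interferon-induced gene Ifi27l2a (2.91). The high rank of Slurp1 follows from its choice for the departure of that array. The next genes were Oasl2, of the oligoadenylate synthetase family (2.66), and Irf7, a transcription factor of the interferon response (2.16). Irf7 had log2 signals of 10.01, 9.49 and 9.48 in HO and 9.92, 9.95 and 10.26 in HE, against 12.00, 9.84 and 9.28 in WT. Rtp4, Usp18, Rsad2 and Ifit1, all interferon-induced, exceeded the other WT arrays by 1.77, 1.57, 1.49 and 1.37. The r with Slurp1 differed among them, at 0.409 for Irf7, 0.600 for Ifi27l2a, 0.545 for Oasl2, 0.656 for Rsad2, 0.377 for Usp18, 0.255 for Rtp4 and 0.189 for Ifit1. Rsad2 had log2 signals of 11.23, 10.70 and 11.65 in HO and 10.55, 10.92 and 11.60 in HE, against 12.14, 10.28 and 10.64 in WT. Irf7 on the 6 transgenic arrays spanned 9.48 to 10.26, overlapping WT replicate 2, while Rsad2 exceeded both WT replicates 2 and 3 on 5 of those 6 arrays. The part of the interferon genes in the Slurp1 value of WT replicate 1 was not tested.

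**Figure D2:**
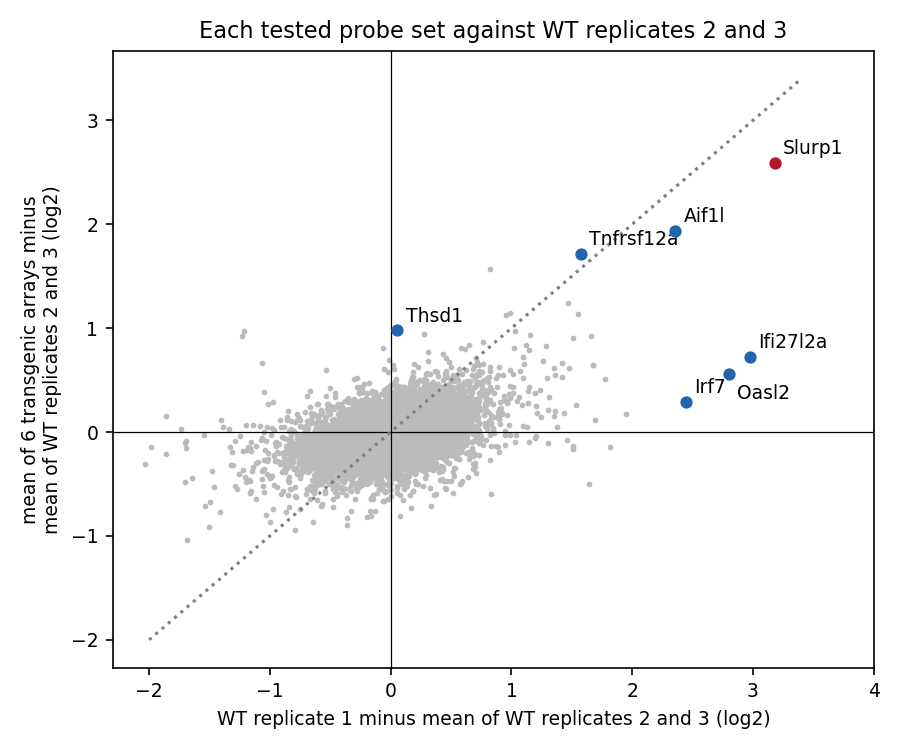
Each grey point is 1 of the 13576 probe sets tested, with the log2 signal of WT replicate 1 (horizontal axis) and the mean of the 6 transgenic arrays (vertical axis), both minus the mean of WT replicates 2 and 3, and the dotted line marks equal values. Slurp1 lies at 3.18 and 2.59, near Aif1l (2.36 and 1.94), while Irf7 lies at 2.44 and 0.29, and Thsd1 (0.05 and 0.98) lies high with no shift on WT replicate 1.

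Not every gene that was low on WT replicates 2 and 3 was high on WT replicate 1. Thsd1, a membrane protein of endothelium, had log2 signals of 11.18, 11.32 and 11.36 in HO and 11.61, 10.97 and 11.25 in HE, against 10.36, 10.18 and 10.42 in WT. All 3 WT arrays were low for this probe set, WT replicate 1 included. On a second Thsd1 probe set WT replicate 1 (10.21) and HE replicate 2 (10.21) had the same value, and the other 2 WT arrays were lower. Thsd1 was chosen after its values were seen.

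The transgene's own context showed no matching pattern. The Cftr probe set that passed the filter on dim probe sets had an r of -0.213 with Slurp1 over the 9 arrays and differed by 0.03 between HO and WT. Sftpc, whose promoter drives the transgene, had an r of 0.299 and differed by 0.03 between HO and WT. The array's probes for mouse Cftr need not detect the human cDNA.

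Among the 13575 other probe sets that passed the filter, correlation with Slurp1 over the 9 arrays reached 0.9 in 7 and -0.9 or below in 2. Random profiles served only to check the computation. How many of the 13575 would reach these limits if unrelated to Slurp1 was not estimated, so the counts are not shown to exceed that number. All points share the same arrays, and the low values of WT replicates 2 and 3 carry most of the range, so r is given as a measure of likeness. Of the 7, 4 had a single gene symbol: Exosc7, a subunit of the RNA exosome (r 0.975), Cryl1, a sugar dehydrogenase of the lens crystallin family (0.960), Sec61a1, the channel subunit of the endoplasmic reticulum translocon (0.946), and Jak2, a cytokine receptor kinase (0.922). The other 3 carried several symbols and are not named. Opposite profiles were those of F3, the clotting initiator tissue factor (-0.941), and Tmed9, a cargo receptor of the early secretory pathway (-0.912). The members just inside the limit were probe sets of several symbols, the nearest at 0.9 after rounding. Just outside it lay another such probe set, which also rounds to 0.9, and Sap30bp, a transcriptional regulator (0.899).

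These genes varied far less than Slurp1, and their order among the 7 high arrays was not always the same: Jak2 was highest on HE replicate 1 (11.28), while Slurp1 was highest on WT replicate 1. The SDs over the 9 arrays were 0.16 for Exosc7, 0.12 for Cryl1, 0.30 for Sec61a1 and 0.32 for Jak2, against 1.25 for Slurp1. The mean of WT replicates 2 and 3 minus that of the other 7 arrays was -2.68 for Slurp1, -0.34 for Exosc7, -0.23 for Cryl1, -0.62 for Sec61a1 and -0.68 for Jak2. For F3 it was 0.65 and for Tmed9 0.54. Exosc7 had log2 signals of 12.01, 11.95 and 11.85 in HO and 11.95, 11.84 and 11.86 in HE, against 11.98, 11.51 and 11.65 in WT. F3 had 9.52, 9.92 and 9.53 in HO and 9.62, 10 and 9.76 in HE, against 9.57, 10.44 and 10.27 in WT. WT replicate 1 sat with the transgenic arrays in both genes. That placement, like the shifts on WT replicates 2 and 3, largely follows from selecting these genes on r with Slurp1.

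Other probe sets of the same genes mostly did not follow. Sec61a1 had 5 others, with r from -0.169 to 0.455. The second Jak2 probe set had an r of -0.283, and a dim second probe set of Cryl1 had 0.167. The second Tmed9 probe set ran the opposite way, with an r of 0.857 beside -0.912 for the first. Exosc7 and F3 had no second probe set here.

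**Figure D3:**
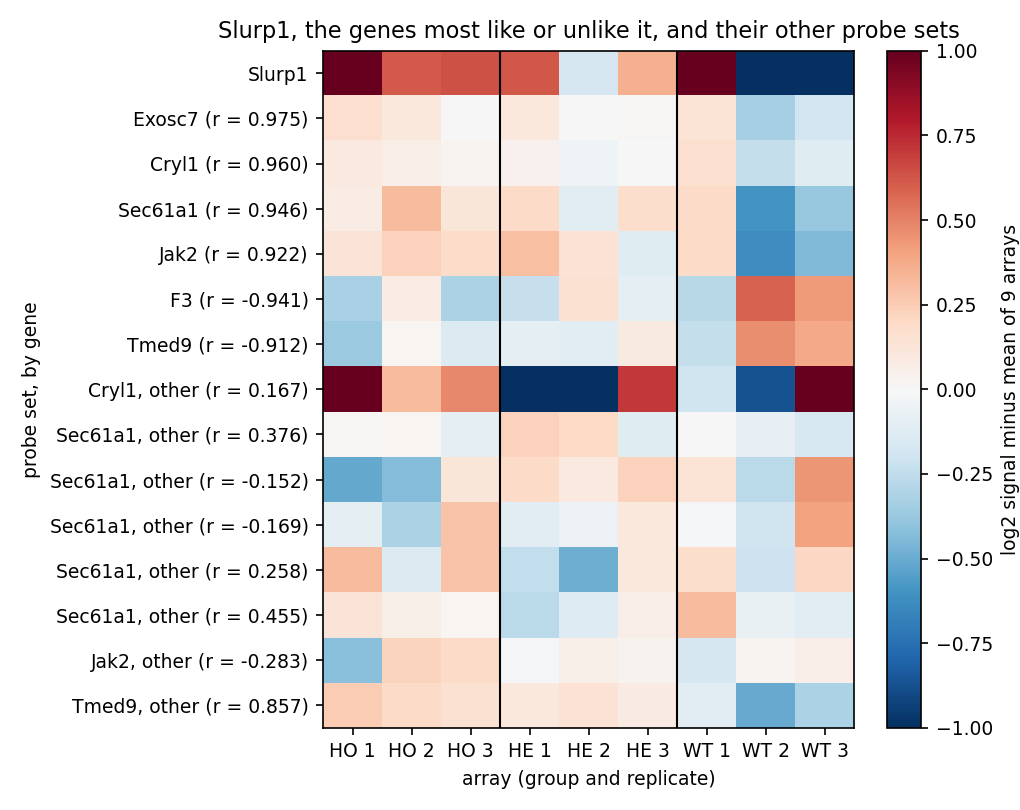
Log2 signal minus the mean over the 9 arrays (colour, cut at 1 either way) for Slurp1, the 6 named genes of most like or opposite profile, and the other probe sets of those genes, with 1 array per column and r with Slurp1 in the row labels. WT replicates 2 and 3 are low in the rows of Exosc7 to Jak2 and high in those of F3 and Tmed9, which largely follows from their selection on r. The second Tmed9 probe set (r 0.857) shows the opposite of the first.

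The promoters of Exosc7 and F3 are shown because these are the named genes whose likeness does not conflict with another probe set. They are the 250 bases before the gene start from RefSeq (GRCm38.p6), 5′ to 3′ on the gene's strand. Capitals mark CACCC, a motif bound by KLF factors, or its reverse complement GGGTG.
Exosc7, chr9:123112981-123113230, plus strand: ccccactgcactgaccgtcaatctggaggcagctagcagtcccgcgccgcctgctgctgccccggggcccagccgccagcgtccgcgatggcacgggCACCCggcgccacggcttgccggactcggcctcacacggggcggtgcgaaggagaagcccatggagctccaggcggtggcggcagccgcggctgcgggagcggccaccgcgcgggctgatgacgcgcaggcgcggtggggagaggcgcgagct
F3, chr3:121723287-121723536, plus strand: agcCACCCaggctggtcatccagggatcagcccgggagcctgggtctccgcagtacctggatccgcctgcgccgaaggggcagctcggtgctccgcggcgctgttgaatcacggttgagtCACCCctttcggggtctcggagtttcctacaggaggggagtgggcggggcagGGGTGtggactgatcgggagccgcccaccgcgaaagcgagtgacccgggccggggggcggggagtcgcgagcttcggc
Exosc7 held 1 match and F3 held 3. A match on either strand occurred in 52.0% of the 32851 windows of this length in the table, so its presence in both is a description of common letters.

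Relatives of Slurp1 with a probe set of a single symbol showed no shared pattern. Of 42 other Ly6/uPAR genes listed, 17 had such a probe set and 7 passed the filter. None of the 7 passed the adjusted or the unadjusted threshold for HO minus WT, where 4.49% of all probe sets passed the unadjusted one, and 2 of the 7 correlated above 0 with Slurp1, with a median r of -0.09 (48.8% and -0.01 over all probe sets). Ly6m (0.609) and Lynx1, a membrane-anchored modulator of nicotinic receptors (0.277), were above 0. Ly6g6c (-0.442), Ly6i (-0.367), Cd59a, an inhibitor of complement (-0.098), Ly6d, a keratinocyte and lymphoid surface protein (-0.094), and Plaur, the urokinase receptor (-0.032), were below 0. Ly6m had 9.31, 9.51 and 8.86 in HO and 8.97, 9.12 and 8.88 in HE, against 9.43, 8.45 and 9.14 in WT, so only WT replicate 2 was low.

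Genes near Slurp1 on chromosome 15 did not share its profile. Of the 10 protein-coding genes on either side, 8 had a probe set of a single symbol. Of these, 4 passed the filter: Lynx1 and Ly6d, already given, Ptp4a3, a phosphatase (0.245), and Jrk (-0.019). Psca, a family member 2 genes away, had an r of -0.903. Its log2 signals were 5.84, 5.73 and 5.5 in HO and 5.70, 5.70 and 5.61 in HE, against 5.57, 6.40 and 6.2 in WT. That probe set was dim and did not pass the filter, and its whole range was under 1 on the log2 scale. Adgrb1, Arc and Cyp11b2 were also dim, with r of 0.273, 0.227 and -0.141.

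**Figure D4:**
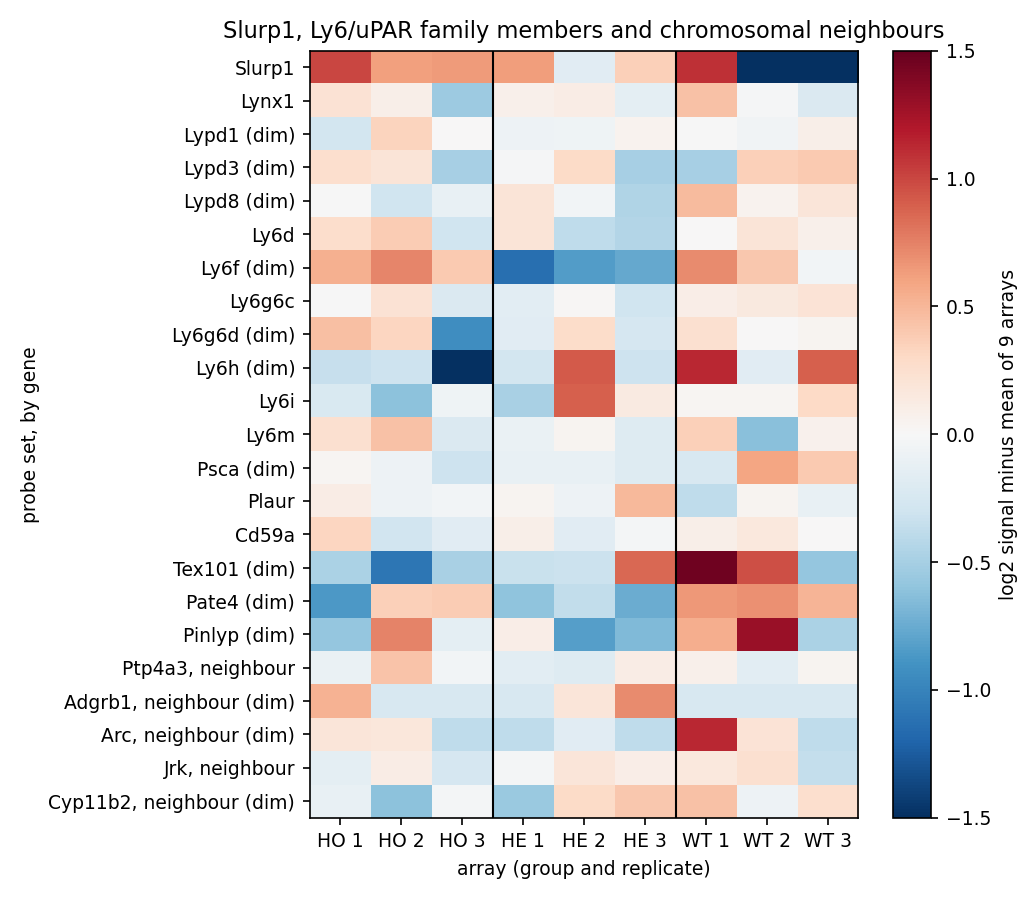
Log2 signal minus the mean over the 9 arrays (colour, cut at 1.5 either way) for Slurp1, the measured Ly6/uPAR family members and the other measured chromosomal neighbours, with 1 array per column. Rows marked dim did not pass the filter, and among the 7 family members that did, none has both WT replicates 2 and 3 below all other arrays.

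The receptors that Slurp1 acts on gave little signal. Of 21 nicotinic receptor and acetylcholine genes, 18 had a probe set of a single symbol. Of these, 3 passed the filter: Chrnb1 (r 0.400), Chrna4 (-0.286) and Chrnb2 (-0.173). Chrna7, the receptor subunit most often linked to Slurp1 and named here for that reason after its values were seen, was dim. Chrna4 was the 1 member with an unadjusted p under 0.05 for HO minus WT (4.49% over all probe sets), at -0.31 ± 0.14 (moderated SE), and no member passed the adjusted threshold.

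Markers of stratified squamous epithelium, where Slurp1 is abundant, were mixed in their likeness to it. Of 47 listed genes, 40 had a probe set of a single symbol and 11 passed the filter. Of those 11, 7 correlated above 0, with a median r of 0.32 (48.8% and -0.01 over all probe sets). Sprr1a, a cornified envelope protein, had an r of -0.632, Perp, a desmosomal protein, -0.573, the glutathione transferase Gsta4 0.558 and the protease inhibitor Cstb 0.540. The keratins Krt5, Krt13 and Krt14 and the envelope protein Ivl were below the filter, and Ivl and Sprr1b were at the floor on every array. The envelope protein Sprr3, also below the filter, had an r of 0.831, with log2 signals of 7.89, 7.97 and 7.32 in HO and 7.85, 7.38 and 7.62 in HE, against 7.31, 6.69 and 6.84 in WT. Other dim members ran both ways, with Pkp1 (-0.605) and Krt10 (-0.509) below 0 and Tgm3 (0.578) and Rhcg (0.502) above it. All these dim members were named after their values were seen. For HO minus WT, 2 of the 11 had an unadjusted p under 0.05 (4.49% over all probe sets), Sprr1a at -0.51 ± 0.13 and the envelope protein Lor at -0.81 ± 0.25 (moderated SE). Lor was named after its values were seen, and neither passed the adjusted threshold.

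Of the lists with 3 or more members past the filter, mesothelial markers had the highest median r. All 6 of those that passed the filter correlated above 0 (48.8% over all probe sets), with a median r of 0.60 (0.54 without WT replicate 1). Igfbp5, an IGF-binding protein, had an r of 0.741, the keratin Krt19 0.709, the surface protein Msln 0.673 and the uroplakin Upk3b 0.533. Msln had log2 signals of 10.60, 9.66 and 10.06 in HO and 10.21, 9.84 and 9.53 in HE, against 10.56, 9.75 and 8.84 in WT. WT replicate 2 was thus among the transgenic arrays for Msln, whereas it was lowest for Slurp1. The summed intensity of the list was 32462, 19719 and 24136 in HO and 25940, 20833 and 19908 in HE, against 34873, 21279 and 14892 in WT. Msln and Upk3b mark the lung surface, and their part in the Slurp1 signal was not tested.

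Airway cell markers had overlapping summed levels. All 9 club cell markers correlated above 0, with a median r of 0.44 (48.8% and -0.01 over all probe sets). One-sided counts also occurred in the adipocyte list (5 of 5, median 0.11) and the endothelial list (9 of 10, median 0.14). The summed intensities of the club cell list overlapped, at 256981 to 317967 in HO and 265772 to 301979 in HE, against 236377 to 321461 in WT. Hp (0.572), Gsto1 (0.521), Cckar (0.521) and Cyp2f2, a cytochrome P450 of club cells (0.472), led the club cell list. Of the basal cell list 4 of 5 were above 0 with a median of 0.28, and of the upper airway and gland list 7 of 12 with a median of 0.07. The alveolar type II list had 8 of 11 above 0 with a median of 0.30, but Nkx2-1, a lung epithelial transcription factor, had an r of -0.806.

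Inflammatory genes mostly had negative r with Slurp1. Of the 15 NF-kB and acute inflammatory genes that passed the filter, 1 correlated above 0 (48.8% over all probe sets). Their median r was -0.43 (-0.39 without WT replicate 1). The neutrophil chemokines Cxcl1 (-0.808) and Cxcl2 (-0.762), the adhesion molecule Icam1 (-0.691) and the NF-kB inhibitor Tnfaip3 (-0.668) were the most opposite. Cxcl1 had log2 signals of 9.15, 9.78 and 9.12 in HO and 8.60, 9.98 and 9.72 in HE, against 8.80, 10.71 and 9.90 in WT. It was highest on WT replicate 2, where Slurp1 was lowest, but HE replicate 2 exceeded WT replicate 3. None of the 15 passed even the unadjusted threshold for HO minus WT (4.49% over all probe sets) or HE minus WT (3.11%). The summed intensity of neutrophil markers was 27976, 11586 and 11981 in HO and 13830, 31251 and 66825 in HE, against 13101, 50746 and 15062 in WT, highest on HE replicate 3. Its part in the inflammatory genes was not tested.

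KLF factors and epithelial regulators were mixed. Of 17 that passed the filter, 12 correlated above 0, with a median r of 0.11 (48.8% and -0.01 over all probe sets). Klf3 had an r of 0.658, Klf5 0.495, Klf4 -0.488 and Klf15 0.412. Klf4 had log2 signals of 13.29, 12.73 and 13.15 in HO and 13.34, 13.14 and 13.33 in HE, against 13.35, 13.58 and 13.37 in WT. For Klf4 the highest HO array (13.29) and, narrowly, the highest HE array (13.34) lay below the lowest WT array (13.35). The HE range overlapped that of HO. The share of all probe sets that separate in this way was not counted, so the separation is not read as a result about Klf4. In limma, 3 of the 17 had an unadjusted p under 0.05 for HO minus WT (4.49% over all probe sets), with differences of 0.34 ± 0.15 for Klf3, -0.38 ± 0.16 for Klf4 and 0.65 ± 0.21 for Klf15 (moderated SE), and none passed the adjusted threshold.

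**Figure D5:**
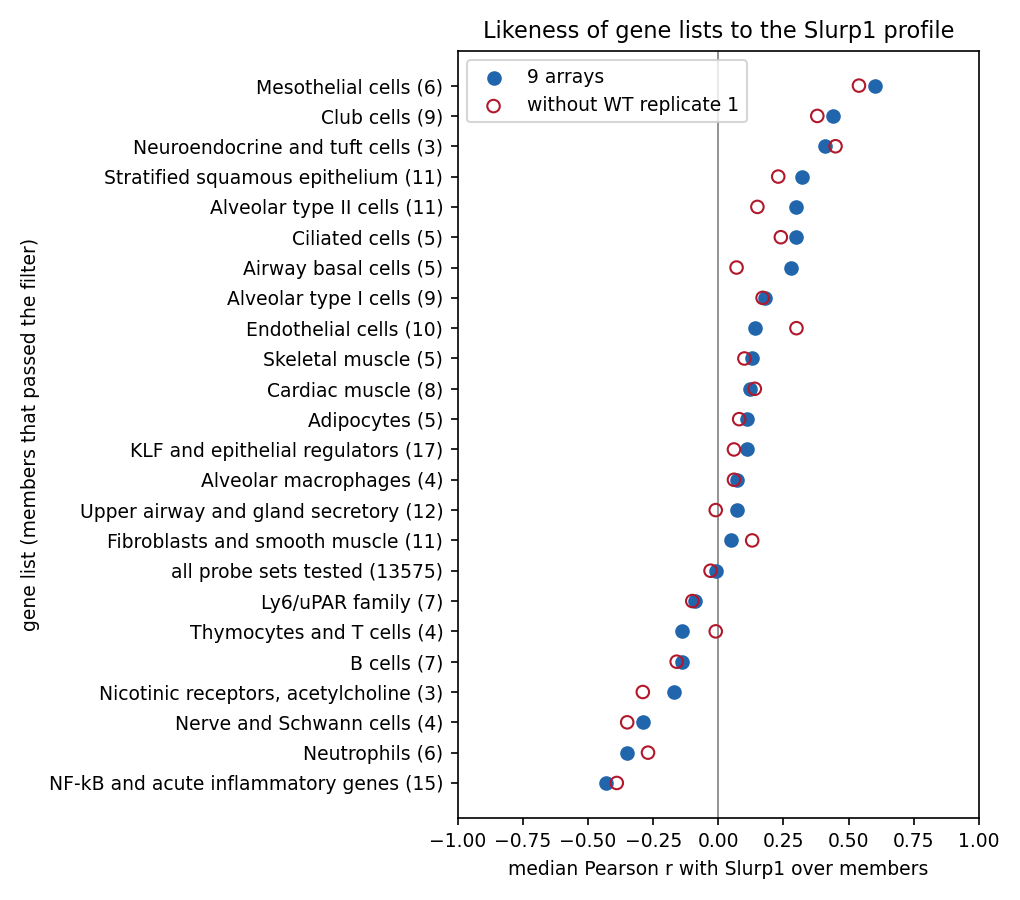
Median Pearson r with Slurp1 (horizontal axis) over the members of each gene list that passed the filter, with the number of members beside the list name, for all 9 arrays (filled) and without WT replicate 1 (open). Mesothelial cells lie highest at 0.60, NF-kB and acute inflammatory genes lowest at -0.43, and all probe sets tested lie at -0.01.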

How the data were processed

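Each probe set has a linear intensity on every array in the deposited table. Judged from the values, the authors scaled the arrays to a trimmed mean of 1500 (2% left out at each end), with software not given in the sources used. A floor at the 5th percentile (25.5) was applied before log2 conversion. Removing the 64 control probe sets, then those whose mean log2 was below the 40th percentile (8.90), left 13576. Slurp1, with a mean of 9.03, passed only because of its high arrays: WT replicates 2 and 3 lie below 8.90. Group means were fitted to all 9 arrays with limma 3.58.1 in R 4.3.3, with Benjamini-Hochberg adjustment over all probe sets and a threshold of 0.05.

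Symbols came from the platform annotation (20380 probe sets with 1 symbol, 691 with several, 1555 with none), and 20351 matched a RefSeq gene table of GRCm38.p6, used for neighbours. Pearson's r was computed on log2 values with Python 3.11.15. The Slurp1 gene, the lists and the rules were chosen with earlier results of these data known. Named genes were those at r of 0.9 or more or -0.9 or less with 1 symbol, measured family members and neighbours, up to 4 members per list of largest absolute r, Cftr and Sftpc; others are marked as chosen after their values were seen. By the criterion used, the replicate number was counted as pairing HO with WT only (correlations of deviations 0.19, 0.14 and 0.28). The values were 0.30, 0.05 and 0.04 for HE with WT, and 0.16, 0.15 and 0.03 for HO with HE. All were above 0, so the pairings were not clearly apart. In a simulation of HO minus WT over these probe sets the fit recovered 16.6% of changes of 0.5 on the log2 scale. It recovered 87.2% of changes of 1, with 7.6 false calls per run. Whether these shares hold for the measured arrays was not tested. There, limma called 0 of 13576 probe sets for HO minus WT. The Thsd1 probe set with a difference of 0.97 had an adjusted p of 0.602 in that fit.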

Additional observations from a re-analysis of the deposited data

How the results depend on the processing

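The Slurp1 differences between group means kept their sign under all 15 alternatives and moved by less than the pooled SD of the groups compared. For comparisons with WT that SD is a loose limit, since it includes the WT SD of 1.86, which WT replicate 1 widens. Some alternatives could not change a difference, so their agreement is no sign of stability. These were no floor, since Slurp1 lay above the floor on every array, and the replicate block, which left the group means unchanged. Leaving out an array of the group not compared was another. HO minus WT ran from 1.49 (floor at the 20th percentile) to 1.86 (quantile normalization), and from 1.09 (without WT replicate 2) to 2.84 (without WT replicate 1) with 1 array left out. HE minus WT ran from 1.01 to 1.38 and, with the same arrays left out, from 0.60 to 2.35. HO minus HE ran from 0.46 to 0.50 and from 0.27 (without HE replicate 2) to 0.66 (without HE replicate 1). The counts of adjusted calls were 0 except with no filter and without WT replicate 1. With no filter, HE minus WT and HO minus HE each gave 2 calls, Fezf2 and Syt8, named after their values were seen. Leaving out 1 array gave 0 to 1 for HO minus WT and 0 to 1 for HE minus WT. With the replicate block the adjusted counts stayed at 0, and probe sets at an unadjusted p under 0.05 numbered 808, 591 and 474, against 610, 422 and 348 without it.

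The number of genes like Slurp1 depended heavily on the setting. Against 7 at r of 0.9 or more and 2 at -0.9 or less, median centring gave 12 at the high end and quantile normalization 4 at the low end. No filter gave 16 and 8, the filter at the 60th percentile 1 at the low end, the replicate block 40 and 20, Spearman's rank correlation 11 and 14, and 1 probe set per gene 3 at the high end. Leaving out any single array gave 11 (without HE replicate 1) to 41 and 4 (without HO replicate 1) to 25, both highest without WT replicate 3. Of the 7, 3 were among the 22 found without WT replicate 1, 6 among the 40 of the replicate block and 2 among the 11 by rank. Without WT replicate 1 the filter was also recomputed on the arrays left. The r itself without that array was 0.973 for Exosc7, 0.973 for Cryl1, 0.945 for Sec61a1 and 0.923 for Jak2. For the probe sets of several symbols it was 0.949, 0.9 and 0.888. Cryl1 had a mean log2 of 8.9, at the edge of the filter. The cause of the changes in number was not tested. With 3 arrays a group, precision is limited by their number.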

Other observations

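With no filter on dim probe sets, 9 more genes reached an r of 0.9 or more with Slurp1, among them Vdr, the vitamin D receptor (0.910), which was chosen after its values were seen. Vdr had log2 signals of 8.0, 8.17 and 8.14 in HO and 8.42, 7.70 and 8.32 in HE, against 8.56, 5.68 and 7.30 in WT. Its signal, like those of the other 8, is in the range removed by the filter.

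Marker lists of tissues next to the lung moved with arrays other than those that set Slurp1. The summed intensity of cardiac muscle markers was 48365 on HO replicate 1 and 46514 on HE replicate 1, and 27179 to 34337 on the other 7 arrays. Adipocyte markers summed to 11272 and 11399 on the same 2 arrays, and to 3132 to 8148 on the others. Their median r with Slurp1 was 0.12 and 0.11.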
